A study of Mus musculus with 7 samples.

Results

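Mouse embryonic fibroblasts that lacked tenascin-C by gene knockout were compared with fibroblasts in which tenascin-C had been lowered by a short hairpin RNA (knockdown). The comparison took 4 of the 7 expression arrays of the series, chosen by title: 2 titled TNCKO and 2 titled shRNA TNC. The knockout arrays came from clones 1 and 2 of cells grown out of a tenascin-C knock-out mouse. The knockdown arrays came from clones 1 and 2 of wild-type cells that carried a stably transfected shRNA against tenascin-C. The other 3 arrays came from clones 1 to 3 of unmodified wild-type cells, and they were used only to say which group departed from wild type and to add to the estimate of the spread between arrays. Cells of all 3 groups had immortalised spontaneously, were seeded at 50000 per well, grew for 2 days in serum-containing DMEM and received no particular treatment. The sources used here do not give the allele, the mouse strain or the age of the embryos. No clone with a control hairpin is analysed here, so the loss of tenascin-C in the knockdown cells cannot be told apart from transfection, from clone selection or from other effects of the hairpin. The knockout and knockdown clones also came from different sources, a knock-out mouse and wild-type cells. Gaps between them cannot be told apart from differences of donor animal, cell line or clone. Whether clones within a group trace back to different animals is not in the labels, so every p-value below measures the spread between these clones, part of which may be technical.

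Tenascin-C is a large glycoprotein of the extracellular matrix, made by embryonic and wound fibroblasts, that modulates their adhesion to fibronectin. A knockout removes the gene from the whole life of the animal and of the cells taken from it, whereas a hairpin lowers the transcript in cells that formed with the gene intact. Fibroblasts of different body regions keep different patterns of Hox and other homeobox gene expression in culture.

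Signals were log2 values of 34760 probe sets, of which 19937 genes had at least 1 probe set with a single gene symbol and 16801 genes passed a filter on low signal. Over all probe sets the 2 knockout arrays correlated at 0.985, the 2 knockdown arrays at 0.987 and knockout with knockdown arrays at 0.979 to 0.981. All 17 fibroblast markers on the array reached the array median on at least 1 array, Fap on knockdown array 1 only. Below the median on every array were 6 of 9 endothelial, 7 of 11 macrophage and blood, 6 of 9 epithelial and 6 of 10 skeletal muscle markers. The same held for 4 of 7 cartilage and bone, 3 of 8 pericyte and smooth muscle, 2 of 9 neural and glial and 1 of 7 adipocyte markers. The epithelial marker Krt19 read 8.22 to 8.51 in wild type, 8.45 and 4.87 in knockout and 6.06 and 5.67 in knockdown. Sex-linked genes split both groups: the X-inactivation transcript Xist, normally made in female cells, read 8.80 on knockout array 2 and 3.51 to 3.77 elsewhere, while Eif2s3y, Kdm5d and Uty of the Y chromosome read 3.77, 4.14 and 3.14 on knockout array 2 and 5.46, 4.86 and 4.98 on knockdown array 2. On knockout array 1 those Y-linked genes read 7.87, 6.32 and 7.57, so the 2 knockout arrays carried signals of opposite sexes. The total count and the contractile, stress and hypoxia lists are therefore also given without both arrays numbered 2. Medians of some other lists and of chromosome 18 in that setting are at the end. The targeted gene Tnc (gene identifier 21923, chromosome 4, probe set 10513739) read 10.88, 11.41 and 11.38 in wild type, 8.05 and 8.51 in knockout, and 7.34 and 6.52 in knockdown. Both groups lay below every wild-type array, and the knockdown arrays lay below the knockout arrays. The gap between them, 1.35 ± 0.323 (SE) on the log2 scale, did not pass the test (limma, adjusted p = 0.139). Whether the deletion covers this probe set is not stated in the labels, so the knockout reading is no measure of intact transcript.

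Knockout and knockdown fibroblasts differed most in position genes (Hoxc5, Hoxc6 and Hoxc8), in the growth factor adaptor Grb10, in the matrix glycoprotein Efemp1, in the surface receptors Avpr1a and P2ry10b, in the ribosomal protein paralogue Rpl39l, in the death effector Mlkl and in the muscle LIM protein Fhl1. At an adjusted p under 0.05 in limma, 46 of 16801 genes (0.274%) were higher in knockout than in knockdown and 17 (0.101%) were lower, 63 in all. In each of the 63 the 2 knockout and 2 knockdown arrays did not overlap, 39 differed at least 2-fold, and the sizes ran from 0.62 to 6.25 on the log2 scale. At an unadjusted p under 0.05 the counts were 1520 genes higher (9.05%) and 1491 lower (8.87%), and the median difference over all genes was -0.05. Over the 7233 genes with a mean log2 signal above 7 the median difference was 0.06.

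The calls rest on few arrays. In some genes all arrays of a group held the same value, so that group added nothing to the estimate of the spread. Among the called genes these were Plod2 in wild type and Grb10, Tspan2 and Arhgef10l in knockdown, each with a standard deviation of 0. The origin of these ties was not tested. Limma called 0 genes on the 4 knockout and knockdown arrays alone (2215 at an unadjusted p under 0.05) and 1 without both arrays numbered 2 (3061 unadjusted). Leaving out wild-type array 1, 2 or 3 gave 16, 12 or 7 calls, of which 14, 11 and 6 were among the 63. Leaving out knockout array 1 or 2 gave 26 or 103 calls, with 14 and 28 of the 63 among them. Without knockdown array 1 there were 12 calls, 6 of them among the 63, and without knockdown array 2 there were 0 (2557 unadjusted), so each call named below ends in that setting. All 63 genes kept their direction in every alternative in which they were tested. Their knockout and knockdown arrays did not overlap, so leaving out arrays could not reverse them, and the kept direction adds no support to the calls.

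Wild type placed the differences in several ways. In 23 of the 63 genes knockout stood apart, with wild type no further from knockdown than 0.25 of the gap. In 6 genes knockdown stood apart (Fhl1, Gja1, Dusp6, Med14, Tes and Fhl3), in 31 wild type lay between the groups, and in 3 both groups departed from wild type the same way. With the limits of these classes moved from 0.25 and 0.75 of the gap to 0.2 and 0.8, the counts were 20, 4, 36 and again 3. The wild-type arrays entered the fit that chose the genes, so these counts describe the 63 and carry no test.

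**Figure D1:**
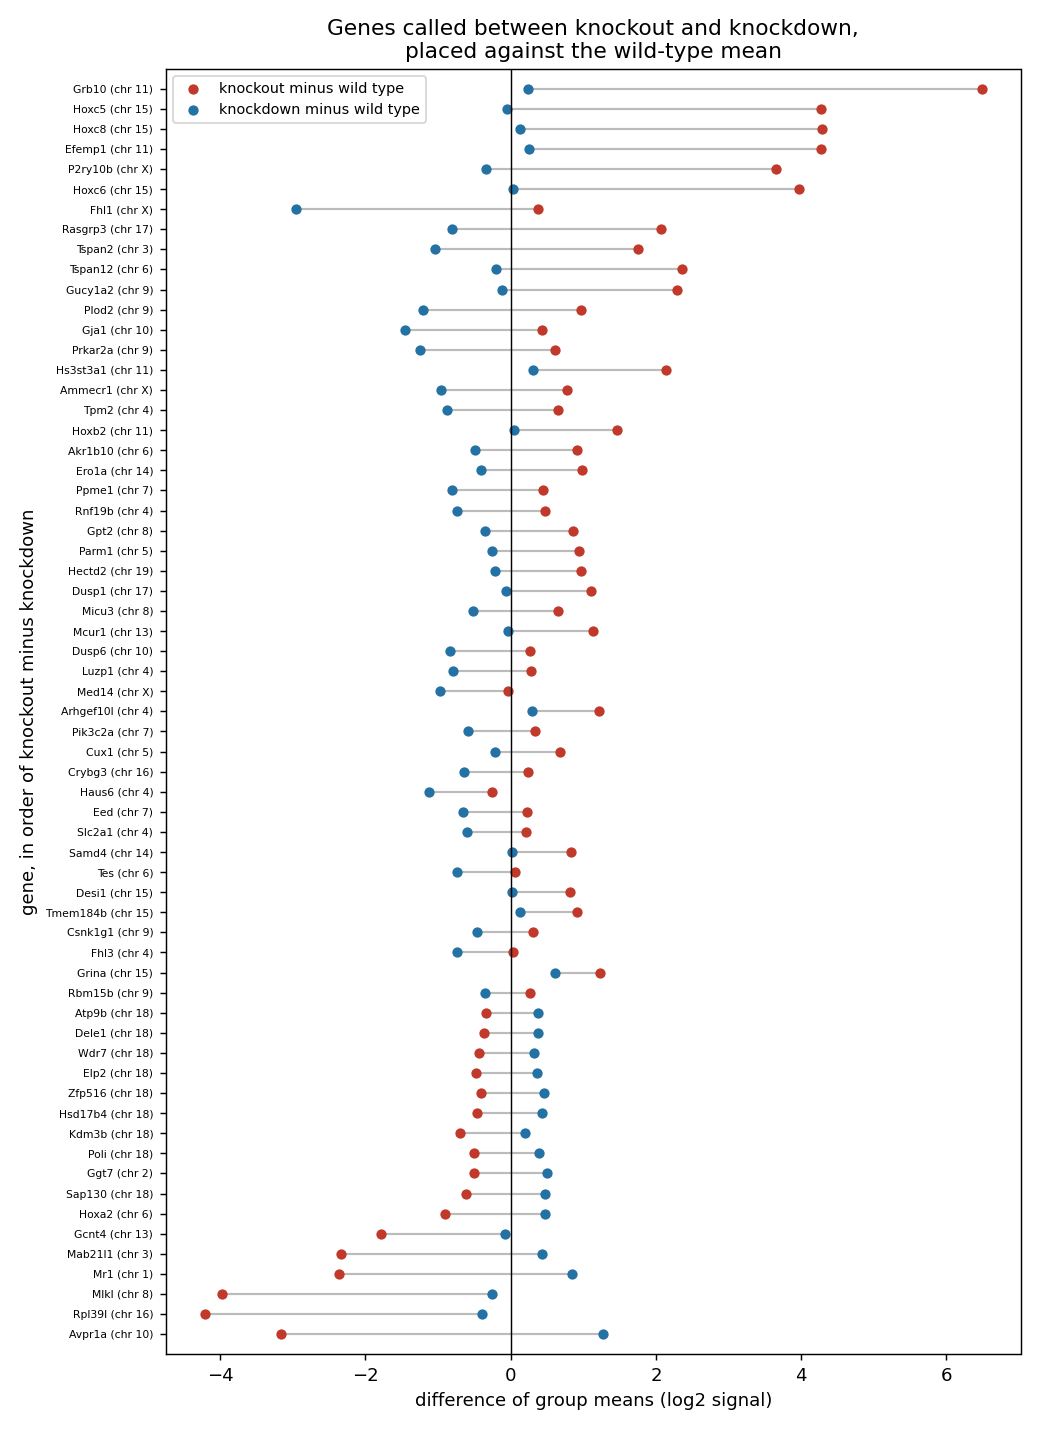
Each row is 1 of the 63 genes called between knockout and knockdown, with its chromosome, ordered by the difference; the x axis gives the difference of group means from the wild-type mean in log2 signal (0 = wild type), red for knockout (mean of 2 arrays) and blue for knockdown (mean of 2 arrays). Grb10, Hoxc5, Hoxc8 and Efemp1 have blue points near 0 and red points beyond 4, Fhl1 has its blue point near -3, and the chromosome 18 genes straddle 0 with red on the left.

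Hoxc5, Hoxc6 and Hoxc8, which lie in the C cluster of Hox genes, were higher in knockout than in knockdown clones. Hox proteins are homeodomain transcription factors that give cells their position along the body axis, and their genes lie in clusters in the order of the body regions they mark. Hoxc5 (chromosome 15, probe set 10427297) read 8.12 and 8.89 in knockout, 4.16 and 4.19 in knockdown, and 4.05 to 4.51 in wild type. Hoxc6 (probe set 10427293) read 8.24 and 8.48 against 4.45 and 4.42, with wild type at 4.03 to 4.59. Hoxc8 (probe set 10427290) read 9.84 and 9.01 against 5.38 and 5.14, with wild type at 5.01 to 5.33. For all 3 genes the knockout arrays lay more than 3 log2 units above the other 5 arrays, and the knockdown arrays overlapped or adjoined the wild-type range. The differences were 4.33 ± 0.27 (SE) for Hoxc5 (20.1-fold, limma adjusted p = 0.00723), 3.92 ± 0.208 for Hoxc6 (15.2-fold, adjusted p = 0.00539) and 4.17 ± 0.274 for Hoxc8 (adjusted p = 0.00867). The knockdown means lay below the array median, and with no detection calls among the values used here, how far background limits these folds is not known. The 3 calls held in 15, 15 and 14 of 20 alternatives. Of 9 Hoxc genes tested these 3 were called, 7 were on the higher side in knockout and 2 on the lower.

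Other Hox genes differed less. Hoxb2, a hindbrain and neck-region gene on chromosome 11, was higher in knockout, at 6.50 and 6.68 against 5.10 and 5.23, with wild type at 5.06 to 5.17 (1.43 ± 0.0995, adjusted p = 0.00924 by limma). Hoxa2, which patterns the neural crest of the jaw and ear arches, went the other way: it read 5.21 and 5.42 in knockout, 6.68 and 6.68 in knockdown and 6.08 to 6.31 in wild type. The Hoxa2 gap of -1.36 ± 0.113 passed (limma adjusted p = 0.0198), with wild type between the groups. Hoxc neighbours chosen after their values were seen did not pass: Hoxc4 read 5.29 and 7.40 in knockout against 3.61 and 3.44 (adjusted p = 0.117), and Hoxc9 read 7.38 and 6.51 against 5.32 and 5.11 (adjusted p = 0.071). Among the same later choices, Hoxb4 differed by 0.85 (adjusted p = 0.0543) and Hoxa5 by -0.94 (adjusted p = 0.0922). Of 37 Hox genes tested, 16 were on the higher and 21 on the lower side in knockout, with 4 called higher, 1 called lower and a median of -0.03 beside -0.05 over all genes.

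Chromosome 15, which holds the Hoxc cluster, lay on the higher side in knockout as a whole. Of its 303 genes with a mean log2 signal above 7, 264 were on the higher side. The 303 genes had a median knockout minus knockdown difference of 0.27, beside 0.06 over all 7233 genes above that signal. Relative to wild type their median stood at 0.38 and 0.58 in the knockout clones and at 0.12 and 0.28 in the knockdown clones. How much of the Hoxc5, Hoxc6 and Hoxc8 differences comes with the chromosome was not tested.

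Of 50 other regional transcription factors and related genes tested, 36 were on the lower side in knockout, where 59.3% of all tested genes also lay. With arrays centred on their medians the list had 30 on the lower side and a median of -0.10 in place of -0.18, and without knockout array 2 its median was -0.27. Mab21l1, a developmental gene of the eye and face, was lower: it read 5.23 and 4.75 in knockout, 7.60 and 7.93 in knockdown and 7.15 to 7.50 in wild type. The gap was -2.77 ± 0.206 (6.84-fold, limma adjusted p = 0.0122), with knockout apart and below the array median. Mab21l1 was the 1 call of this list, and 10 were lower and 2 higher at an unadjusted p under 0.05, with a list median of -0.18. Chosen after its values were seen, the orphan nuclear receptor gene Nr2f1 read 5.06 and 6.02 in knockout against 9.35 and 8.05 (adjusted p = 0.0671). The homeobox gene Meis2, a partner of Hox proteins and likewise a later choice, read 8.004 and 7.78 against 9.36 and 9.80 (adjusted p = 0.0543).

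**Figure D2:**
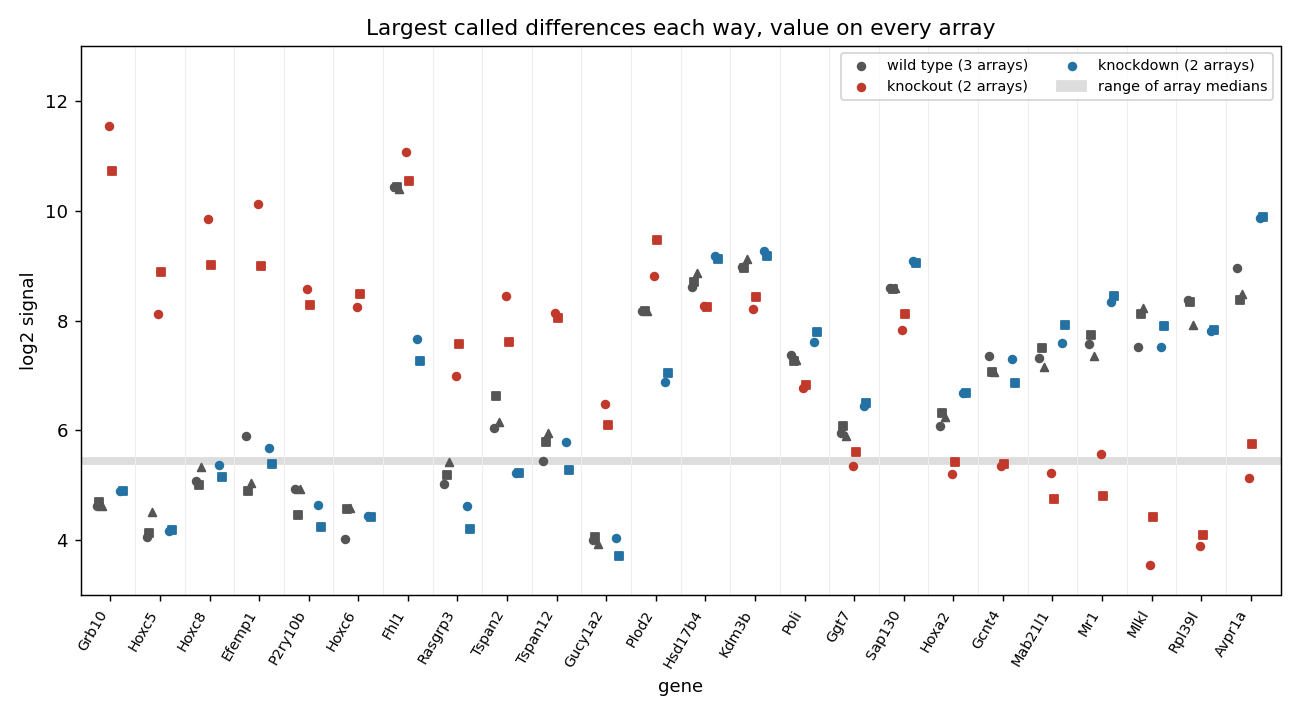
Log2 signal (y axis) on every array for the 12 largest called differences in each direction (x axis, by gene); grey points are wild type, red knockout and blue knockdown, circles, squares and triangles are arrays 1, 2 and 3, and the grey band is the range of the 7 array medians (5.38 to 5.49). The red points lie above the blue for the 12 genes from Grb10 to Plod2 and below them for the 12 genes from Hsd17b4 to Avpr1a, with no overlap in any gene.

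Grb10 gave the largest difference of all. It encodes an imprinted adaptor protein that binds the insulin and IGF1 receptors and restrains their signalling. Grb10 (chromosome 11, probe set 10384398) read 11.55 and 10.73 in knockout, 4.89 and 4.89 in knockdown, and 4.63, 4.70 and 4.63 in wild type. Knockdown and wild type lay below the array median and within 0.3 of each other, and both knockout arrays lay more than 5 log2 units above. The gap was 6.25 ± 0.246 (76.0-fold, limma adjusted p = 0.00361), and the call held in 17 of 20 alternatives. Of 17 insulin and IGF signalling genes, Grb10 was the 1 called, and 4 were higher and 3 lower at unadjusted p below 0.05. The insulin receptor gene Insr, chosen after its values were seen, differed by 0.47 (adjusted p = 0.0807).

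Apart from Grb10, imprinted genes lay mostly on the lower side. These are genes read from 1 parental copy, many of them regulators of fetal growth. Of 16 tested, 14 were on the lower side in knockout and 2 on the higher, with a median of -0.37 beside -0.05 over all genes. Grb10 was called, and at an unadjusted p under 0.05 there were 4 lower. Mest, a paternally expressed gene chosen here after its values were seen, read 6.17 and 5.69 in knockout, 8.50 and 8.64 in knockdown and 7.53 to 9.55 in wild type (adjusted p = 0.138). Dlk1, a membrane ligand that holds back adipocyte differentiation and likewise a later choice, read 7.94 and 5.89 against 9.93 and 10.38, but wild-type array 3 also read 7.94 (adjusted p = 0.228). Leaving out knockout array 1 or knockdown array 1 left 2 lower at an unadjusted p under 0.05 in place of 4, and the list median became -0.24 or -0.17. Without knockdown array 2 the count stayed at 4, of which 1 was among the first 4.

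Among matrix genes, Efemp1 and Plod2 were called. Efemp1 encodes a fibulin-family glycoprotein of elastic tissue, and it was higher in knockout, at 10.12 and 8.99 against 5.68 and 5.39 in knockdown. Wild type read 5.91, 4.89 and 5.03, so the knockdown arrays lay within the wild-type range and both knockout arrays far above it. The Efemp1 gap was 4.02 ± 0.464 (16.2-fold, limma adjusted p = 0.0466), a call that held in 7 of 20 alternatives. Plod2, a lysyl hydroxylase that prepares collagen for crosslinking, read 8.82 and 9.47 in knockout, 6.88 and 7.05 in knockdown and 8.18 on each wild-type array. Wild type lay between the groups, and the Plod2 gap was 2.18 ± 0.206 (4.52-fold, limma adjusted p = 0.033).

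Few matrix genes were called. Of all genes 0.274% were called higher and 0.101% lower, so few calls in a list do not show that the groups were alike in it. Of 34 matrix glycoproteins and proteoglycans, 19 were on the higher side in knockout and 15 on the lower, with Efemp1 called and a median of 0.12. Of 13 crosslinking enzymes, 9 were on the higher side, with Plod2 called and a median of 0.23. With limma p left unadjusted and a limit of 0.05, the glycoprotein list held genes in both directions. The crosslinking list held genes in the higher direction only. None of 22 collagens was called by limma (0, with 2 higher at an unadjusted p under 0.05), and their median was 0.11. Those 2 were the basement membrane collagens Col4a1, at 8.81 and 9.23 against 7.87 and 7.03, and Col4a2, at 9.01 and 9.14 against 8.11 and 7.34 (adjusted p = 0.107 and 0.111). Of 24 integrins and other adhesion receptors limma called 0, with 4 higher and 1 lower at unadjusted p below 0.05. The fibronectin receptor subunit Itga5 read 10.35 and 10.41 against 8.94 and 8.90, and the vitronectin receptor subunit Itgb5 10.85 and 10.84 against 10.11 and 9.81 (adjusted p = 0.0865 and 0.111). Of 15 tenascins and tenascin-C receptors limma called 0, with 2 higher and 1 lower at unadjusted p below 0.05, Tnc among the higher.

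Of 28 genes of the contractile apparatus, 23 were on the higher side in knockout, and the largest of these gaps came from a low level in knockdown. Fhl1, whose LIM domain product binds actin fibres in muscle, was lower in knockdown: it read 7.66 and 7.27 there, 11.06 and 10.54 in knockout, and 10.43, 10.44 and 10.40 in wild type. Knockdown lay below all other arrays, and knockout lay close to wild type. The Fhl1 gap was 3.34 ± 0.199 (10.1-fold, limma adjusted p = 0.0062). Its gene lies on the X chromosome, and the gap was 3.60 without knockout array 2, the array with Xist signal (adjusted p = 0.019). Tpm2, a tropomyosin of actin filaments, read 9.49 and 9.58 in knockout, 7.86 and 8.15 in knockdown and 8.65 to 9.16 in wild type. Wild type lay between the groups, and the gap was 1.53 ± 0.185 (2.89-fold, limma adjusted p = 0.0488).

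Promoters of this group were read for the CArG box, the element bound by serum response factor in contractile genes. The windows cover the 250 bases before the gene start in RefSeq, build GRCm38.p6, given 5′ to 3′ on the gene's strand; both strands were searched and the box is in capitals. The 3 windows shown belong to genes on the higher side in knockout at an unadjusted p under 0.05. Fhl2 met the same limit, at a difference of 0.29, and is not shown because its matches lie before 2 different RefSeq starts. Fhl1 lies on the plus strand at chrX:56779433-56779682, Vcl on the plus strand at chr14:20929148-20929397 and Cnn2 on the plus strand at chr10:79988350-79988599.
Fhl1: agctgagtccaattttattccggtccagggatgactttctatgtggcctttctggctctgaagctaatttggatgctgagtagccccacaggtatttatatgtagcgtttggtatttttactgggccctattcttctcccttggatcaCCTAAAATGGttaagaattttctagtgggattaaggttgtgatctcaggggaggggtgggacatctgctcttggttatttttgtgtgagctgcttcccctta
Vcl: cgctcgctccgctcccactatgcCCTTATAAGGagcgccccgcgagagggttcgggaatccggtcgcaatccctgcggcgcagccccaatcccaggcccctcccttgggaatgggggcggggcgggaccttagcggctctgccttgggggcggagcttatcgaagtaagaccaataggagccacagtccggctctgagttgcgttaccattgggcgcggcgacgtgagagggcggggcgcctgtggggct
Cnn2: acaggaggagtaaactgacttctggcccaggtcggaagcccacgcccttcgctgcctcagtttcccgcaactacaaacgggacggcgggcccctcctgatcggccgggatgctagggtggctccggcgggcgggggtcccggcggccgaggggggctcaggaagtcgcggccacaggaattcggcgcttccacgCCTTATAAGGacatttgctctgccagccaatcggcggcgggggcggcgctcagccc
The box was found in 5 of the 24 contractile genes with a promoter entry (Fhl1, Vcl, Cnn2, Fhl2 and Myl9), and in 1.62% of 27025 genes with such an entry. At an unadjusted p under 0.05, 13 of the 24 were higher in knockout, and so were 4 of the 5 with the box. Whether the box goes with the difference was not tested. Vcl, the adhesion protein vinculin, read 10.77 and 10.65 in knockout against 9.95 and 9.93 (adjusted p = 0.143). Cnn2, an actin-binding calponin, read 10.59 and 10.42 against 10.13 and 10.28 (adjusted p = 0.242). Both were chosen for the box after their values were seen. A match describes the letters of the window and does not show that a factor binds there.

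The whole contractile list had a median of 0.42 beside -0.05 over all genes. Limma called 2 (Fhl1 and Tpm2), and 13 were higher and 0 lower at unadjusted p below 0.05. The list median against wild type was 0.36 in knockout and -0.23 in knockdown. Per array it stood at 0.43 and 0.12 in knockout and at -0.18 and -0.23 in knockdown, with wild type at -0.16 to 0.06. Of the 13, 7 were again at an unadjusted p under 0.05 without knockout array 1 and 8 without knockdown array 2. Without both arrays numbered 2 the count was 6, and 4 of these were among the 13. Among members named after their values were seen, the smooth muscle calponin Cnn1 read 10.59 and 10.40 against 9.02 and 6.84, which did not pass (adjusted p = 0.176). The non-muscle myosin Myh9 read 11.77 and 11.67 against 10.85 and 10.94 (adjusted p = 0.0543). Of 8 pericyte and smooth muscle markers, 4 were on the higher and 4 on the lower side, and Rgs5, Kcnj8 and Abcc9 were below the array median on every array. Their summed linear signal was 1435 and 828.6 in knockout, 709.2 and 710.2 in knockdown and 778.4 to 965 in wild type; their part in the contractile counts was not tested.

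**Figure D3:**
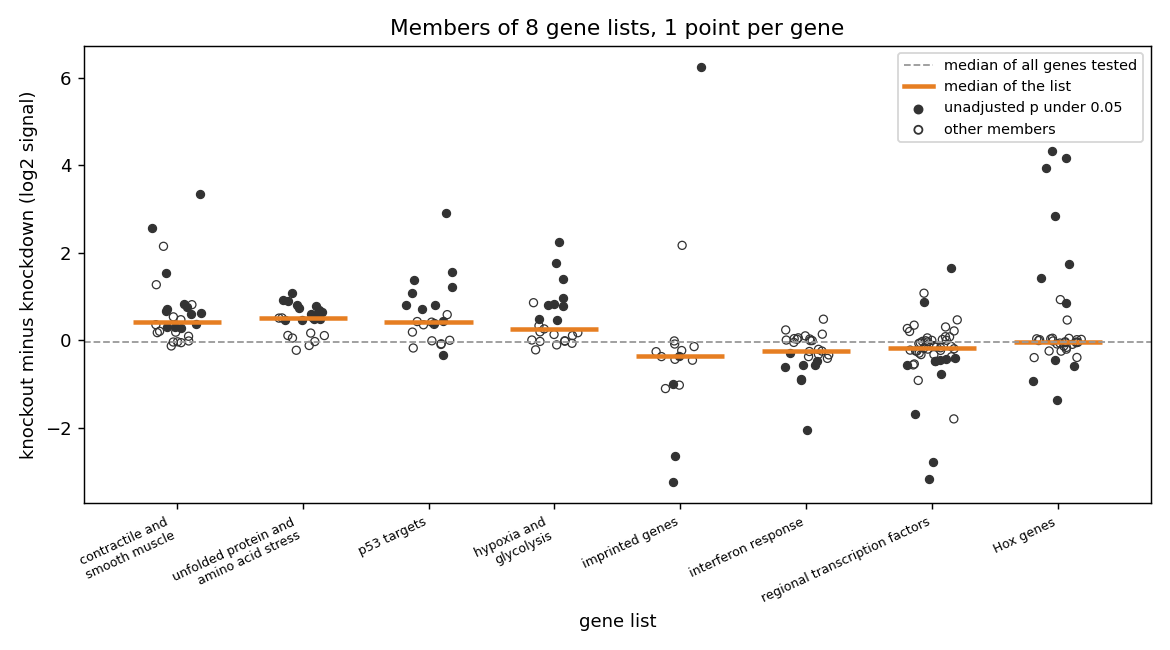
Knockout minus knockdown difference in log2 signal (y axis) for every tested member of 8 gene lists (x axis), 1 point per gene; filled points have an unadjusted p under 0.05, the orange bar is the list median and the dashed line the median of all genes (-0.05). The bars of the contractile, stress and p53 lists stand at 0.42, 0.52 and 0.42, and those of the imprinted and interferon lists at -0.37 and -0.25.

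Gja1, Tes, Fhl3 and Med14 were lower in knockdown than in knockout, with wild type close to knockout. Gja1, which encodes the gap junction protein connexin 43, read 7.41 and 7.97 in knockdown, 9.35 and 9.80 in knockout and 9.01 to 9.32 in wild type (gap 1.88 ± 0.234, limma adjusted p = 0.0495). Tes, a LIM protein of focal adhesions, read 9.27 and 9.16 against 10.05 and 9.98, with wild type at 9.93 to 10.00 (0.80 ± 0.0818, adjusted p = 0.0381). Fhl3, a relative of Fhl1, read 8.75 and 8.75 against 9.43 and 9.59 (0.76 ± 0.0937, adjusted p = 0.0495). In these 3 genes the knockdown arrays lay below all 5 others. The Mediator subunit gene Med14 read 8.20 and 7.93 in knockdown against 9.03 and 8.97 in knockout and 8.97 to 9.09 in wild type (adjusted p = 0.0488). Tes and Fhl3 were chosen after their values were seen. The Gja1, Tes, Fhl3 and Med14 calls held in 4 of 20, 8 of 20, 3 of 20 and 5 of 19 alternatives.

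Surface receptors and the enzymes downstream of them differed in both directions. Avpr1a, the vasopressin receptor of vascular smooth muscle and liver, had the largest difference toward knockdown: it read 5.13 and 5.75 in knockout, 9.87 and 9.89 in knockdown, and 8.96, 8.37 and 8.49 in wild type. Knockout lay below and knockdown above every wild-type array, and the gap was -4.44 ± 0.264 (21.7-fold, limma adjusted p = 0.0062). P2ry10b, a receptor gene of the purinergic family on the X chromosome, was higher in knockout, at 8.57 and 8.28 against 4.63 and 4.24, with wild type at 4.46 to 4.93 (3.99 ± 0.221, adjusted p = 0.00572 by limma). Without knockout array 2 the P2ry10b gap was 4.14 (adjusted p = 0.0244). Gucy1a2, a subunit of the nitric oxide receptor guanylate cyclase, read 6.49 and 6.10 against 4.03 and 3.72, with wild type at 3.93 to 4.06 (2.42 ± 0.163, adjusted p = 0.00909). In P2ry10b and Gucy1a2 the knockdown arrays overlapped wild type and lay below the array median. Of 23 vasoactive receptors and cyclases tested, these 2 were called higher and Avpr1a lower, and 10 were on the higher and 13 on the lower side.

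Signalling proteins inside the cell were called as well. Rasgrp3, an exchange factor that activates Ras, read 6.99 and 7.57 in knockout, 4.63 and 4.20 in knockdown and 5.03 to 5.42 in wild type (2.86 ± 0.248, limma adjusted p = 0.0221). Prkar2a, which encodes the type II alpha regulatory subunit of protein kinase A, read 9.12 and 8.96 against 7.23 and 7.13, with wild type at 8.41 to 8.45 (1.86 ± 0.0877, 3.62-fold, adjusted p = 0.00361). In both genes wild type lay between the groups. The Prkar2a call held in 16 of 20 alternatives, and Prkar2a was the 1 gene called of 14 for protein kinase A. Dusp6, an ERK phosphatase induced by growth factor signalling, was lower in knockdown: 8.17 and 8.40 against 9.34 and 9.42 in knockout and 8.98 to 9.26 in wild type (1.10 ± 0.125, adjusted p = 0.0464). Dusp1, a related phosphatase chosen after its values were seen, was higher in knockout, at 10.21 and 10.43 against 9.31 and 8.98, with wild type at 9.20 to 9.22 (1.18 ± 0.134, adjusted p = 0.0464). Of 33 genes of FGF, PDGF, EGF and HGF signalling, Dusp6 was the 1 called, and the median was 0.10.

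Tetraspanins, membrane proteins that organise integrins and other receptors into clusters, held 2 of the called genes. Tspan2 read 8.44 and 7.61 in knockout, 5.23 and 5.23 in knockdown and 6.04 to 6.63 in wild type (2.79 ± 0.308, limma adjusted p = 0.0436). Tspan12, a co-receptor of Norrin signalling in retinal vessels, read 8.15 and 8.04 against 5.78 and 5.28, with wild type at 5.45 to 5.96 (2.56 ± 0.221, adjusted p = 0.0221). Tspan12 set knockout apart, whereas wild type lay between the groups for Tspan2. Of 21 tetraspanins, 14 were on the higher side in knockout, and 7 were higher and 0 lower at unadjusted p below 0.05. Hs3st3a1, a heparan sulfate sulfotransferase gene chosen after its values were seen, was also higher in knockout, at 6.12 and 5.74 against 4.14 and 4.06 (1.83 ± 0.192, adjusted p = 0.0399).

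Genes of the amino acid and unfolded protein stress response lay on the higher side in knockout, without a call. Cells short of amino acids or loaded with misfolded protein make more of the transcription factor ATF4, which raises amino acid synthesis and transport genes. Of 26 tested, 23 were on the higher side, limma called 0, and 16 were higher and 0 lower at unadjusted p below 0.05, with a median of 0.52 beside -0.05 over all genes. The list median against wild type was 0.48 and 0.32 in knockout and -0.12 and -0.02 in knockdown, with wild type at -0.10 to 0.12. The count of 16 became 10 without knockout array 1, 8 without knockdown array 1 and 8 without both arrays numbered 2. Asns, asparagine synthetase, read 11.59 and 11.31 in knockout, 10.45 and 10.64 in knockdown and 10.43 to 10.81 in wild type (0.91 ± 0.165, adjusted p = 0.0895). Phgdh, the entry enzyme of serine synthesis, read 9.52 and 9.42 against 8.95 and 9.04 (0.48 ± 0.0871, adjusted p = 0.0891). In both genes the knockout arrays lay above all 5 others.

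Promoters of this list were searched on both strands for the core of the amino acid response element, TGATGNAA, to which ATF4 binds with partner proteins. The windows again cover 250 bases before the RefSeq gene start (GRCm38.p6), 5′ to 3′ on the gene's strand, with the match in capitals. They are shown for the 3 genes with a match that were on the higher side at an unadjusted p under 0.05. Asns lies on the minus strand at chr6:7693210-7693459, Atf3 on the minus strand at chr1:191183334-191183583 and Chac1 on the plus strand at chr2:119350992-119351241.
Asns: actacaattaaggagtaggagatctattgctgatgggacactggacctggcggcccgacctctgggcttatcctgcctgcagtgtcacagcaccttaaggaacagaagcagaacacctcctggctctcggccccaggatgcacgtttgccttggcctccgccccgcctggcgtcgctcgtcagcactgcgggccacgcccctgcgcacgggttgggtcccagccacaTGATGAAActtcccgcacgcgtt
Atf3: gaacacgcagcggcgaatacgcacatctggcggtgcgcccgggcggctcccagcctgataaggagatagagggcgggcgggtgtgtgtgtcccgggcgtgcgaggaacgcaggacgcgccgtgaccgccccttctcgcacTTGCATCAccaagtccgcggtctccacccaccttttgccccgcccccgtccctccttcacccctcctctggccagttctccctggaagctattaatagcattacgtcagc
Chac1: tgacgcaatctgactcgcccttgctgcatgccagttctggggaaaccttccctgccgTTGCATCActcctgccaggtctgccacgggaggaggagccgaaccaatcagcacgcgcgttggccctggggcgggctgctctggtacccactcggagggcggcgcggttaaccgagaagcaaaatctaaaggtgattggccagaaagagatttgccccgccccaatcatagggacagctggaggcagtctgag
In Atf3 and Chac1 the capitals read as the reverse complement of the motif. A match was found in 5 of 25 members with a promoter entry (Asns, Atf3, Chac1, Herpud1 and Slc7a11) and in 3.91% of 27025 genes. At an unadjusted p under 0.05, 15 of the 25 were higher in knockout, and so were 3 of the 5 with a match. Chac1, a glutathione-degrading enzyme, read 8.54 and 8.16 in knockout against 7.26 and 7.89 (adjusted p = 0.181). Atf3, a stress-induced transcription factor, read 7.18 and 6.96 against 6.20 and 6.67 (adjusted p = 0.181). Atf4 itself read 9.62 and 9.82 against 8.86 and 9.20, with wild type at 8.55 to 9.01 (adjusted p = 0.168). These 3 genes were chosen after their values were seen, and a match shows letters and not binding.

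Targets of p53, the regulator of arrest and death after DNA damage, gave a similar picture. Of 22 tested, 16 were on the higher side in knockout and 5 on the lower, limma called 0, and 10 were higher and 1 lower at unadjusted p below 0.05, with a median of 0.42. Per array the list median was 0.50 and 0.46 above wild type in knockout and at -0.04 and 0.14 in knockdown. Eda2r, a death receptor, read 6.62 and 7.86 in knockout, 4.49 and 4.20 in knockdown and 4.15 to 4.77 in wild type (2.90 ± 0.42, adjusted p = 0.0617). Zmat3, an RNA-binding target of p53, read 7.41 and 7.83 against 6.03 and 6.46 (1.38 ± 0.198, adjusted p = 0.0617). Mdm2, the inhibitor that p53 induces against itself and a later choice, read 8.85 and 8.17 against 7.48 and 7.39 (adjusted p = 0.127). Without knockout array 2 the count of 10 became 6.

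Hypoxia and glycolysis genes included 2 calls, but the list as a whole rested on 1 array. Ero1a, an oxidase of disulfide bond formation induced by low oxygen, read 9.80 and 9.87 in knockout, 8.58 and 8.30 in knockdown and 8.71 to 8.98 in wild type (1.39 ± 0.131, limma adjusted p = 0.033). Slc2a1, the glucose transporter GLUT1, read 10.23 and 10.31 against 9.52 and 9.40, with wild type at 9.99 to 10.12 (0.81 ± 0.0891, adjusted p = 0.0436). In both genes knockout lay above and knockdown below every wild-type array. Of 23 genes, 17 were on the higher side and 9 were higher at an unadjusted p under 0.05, with a median of 0.26. The list median against wild type was 0.02 on knockout array 1 and 0.56 on knockout array 2, and without knockout array 2 the list median difference was -0.00040 and the count of 9 became 5. Without both arrays numbered 2 the median was -0.02. It was 0.56 without knockout array 1, 0.50 without knockdown array 1 and 0.14 without knockdown array 2.

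Mlkl and Mr1 were lower in knockout than in knockdown. Mlkl, the protein that ruptures the membrane in necroptosis, read 3.54 and 4.42 in knockout, 7.52 and 7.89 in knockdown, and 7.52 to 8.23 in wild type. Knockdown overlapped wild type, and both knockout arrays lay below the array median (-3.73 ± 0.356, 13.3-fold, limma adjusted p = 0.0334). Mr1, an MHC-like molecule that presents vitamin metabolites to T cells, read 5.58 and 4.81 in knockout, 8.35 and 8.45 in knockdown and 7.35 to 7.74 in wild type (-3.21 ± 0.259, adjusted p = 0.0189). Mr1 was the 1 call among 13 genes of MHC class I presentation, of which 10 were on the lower side. Mlkl was the 1 call among 17 genes of necroptosis and apoptosis, of which 10 were on the higher side.

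None of 27 interferon response genes was called (0 by limma), and 0 were higher and 8 lower at unadjusted p below 0.05, with a median of -0.25. Both groups lay below wild type: the list median was -0.43 and -0.42 in knockout and -0.22 and -0.41 in knockdown. Rtp4, an interferon-induced chaperone gene, read 4.79 and 5.04 in knockout, 5.79 and 5.82 in knockdown and 6.66 to 7.25 in wild type (-0.89 ± 0.205, adjusted p = 0.132). Irf1, a transcription factor of the response, read 6.94 and 7.15 against 7.71 and 7.53 in knockdown, with wild type at 6.99 to 7.24 (-0.57 ± 0.129, adjusted p = 0.124). Irf1 had a second probe set, which read 5.79 and 5.70 in knockout against 5.71 and 5.71, a difference of 0.03. Without knockout array 1 the count of 8 became 5, and without knockdown array 2 the list median of -0.25 became -0.15.

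Rpl39l and Gcnt4 were also much lower in knockout. Rpl39l, a second copy of the gene for ribosomal protein L39, read 3.90 and 4.09 in knockout, 7.80 and 7.84 in knockdown and 7.91 to 8.37 in wild type. The gap of -3.82 ± 0.171 (14.1-fold, limma adjusted p = 0.00361) held in 17 of 20 alternatives. Paralogues share sequence, so signal from related transcripts may add to this probe set, and how much was not tested. In knockout the probe set read close to the 25th percentiles of the 2 arrays, 3.99 and 3.98. Gcnt4, a glycosyltransferase that branches O-glycans, read 5.36 and 5.40 in knockout, 7.31 and 6.86 in knockdown and 7.06 to 7.36 in wild type (-1.71 ± 0.175, adjusted p = 0.0381). In both genes the knockout mean was below the array median and both knockout arrays lay below the other 5. Ggt7, of the gamma-glutamyltransferase family, differed less: it read 5.35 and 5.60 against 6.45 and 6.51, with wild type at 5.89 to 6.07 (-1.0045 ± 0.114, adjusted p = 0.0464).

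Chromosome 18 genes lay on the lower side in knockout along the whole chromosome. Of the 17 genes called lower, 9 lie on chromosome 18, which is 2.23% of its 404 tested genes beside 0.101% of all genes, and 0 were called higher. At an unadjusted p under 0.05, 173 of 404 (42.8%) were lower beside 8.87% of all genes. Of the 201 chromosome 18 genes with a mean log2 signal above 7, 189 were on the lower side. The median of the 201 genes was -0.46, a ratio of 1.38, beside 0.06 over all genes above that signal. In that group the median relative to wild type was -0.35 and -0.19 in knockout and 0.19 and 0.17 in knockdown, with wild type at -0.02 to 0.02. Knockout thus lay below and knockdown above wild type on every array. Divided into 10 segments in gene order, the chromosome had medians from -0.61 to -0.34, each on the lower side in knockout. This chromosome was singled out after its values were seen, and its median was not tested.

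The 9 called genes were small, even shifts. Sap130, a subunit of a histone deacetylase complex, read 7.82 and 8.12 in knockout, 9.08 and 9.05 in knockdown and 8.57 to 8.60 in wild type (-1.09 ± 0.109, limma adjusted p = 0.0381). Poli, a translesion DNA polymerase, read 6.78 and 6.82 against 7.62 and 7.79, with wild type at 7.27 to 7.38 (-0.90 ± 0.0912, adjusted p = 0.0381). Hsd17b4, an enzyme of peroxisomal fatty acid oxidation, read 8.26 and 8.26 against 9.17 and 9.13, with wild type at 8.62 to 8.86 (-0.89 ± 0.0993, adjusted p = 0.0436). In all 3 wild type lay between the groups. Kdm3b, a histone demethylase gene, read 8.21 and 8.44 against 9.26 and 9.17, with wild type at 8.96 to 9.11 (-0.89 ± 0.11, adjusted p = 0.0495). The other 5 were Zfp516, Elp2, Wdr7, Dele1 and Atp9b, at -0.86, -0.85, -0.77, -0.74 and -0.71, and in each of them knockout lay below and knockdown above every wild-type array. With chromosome 18 left out of the fit, an alternative chosen after seeing the data, 33 genes were called, 26 higher and 7 lower, and all 33 were among the 63.

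**Figure D4:**
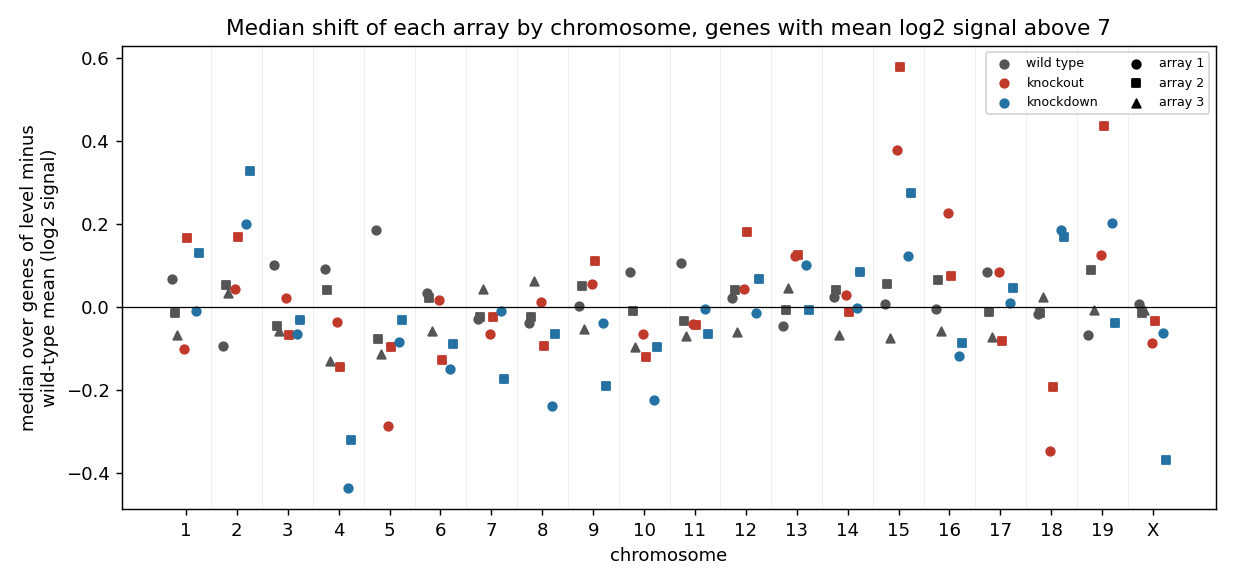
Level minus the wild-type mean (y axis, log2 signal), as the median of the genes whose mean log2 signal exceeds 7, for each chromosome (x axis); grey is wild type, red knockout and blue knockdown, and circles, squares and triangles are arrays 1, 2 and 3. On chromosome 18 both red points (-0.35 and -0.19) lie below and both blue points (0.19 and 0.17) above wild type, on chromosome 15 the red points are at 0.38 and 0.58, and on chromosome 4 the blue points are at -0.44 and -0.32.

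Chromosome 4, which holds Tnc and, among the called genes, Tpm2, Slc2a1, Fhl3, Haus6, Arhgef10l and others, lay on the higher side as well. Of its 435 genes above a mean log2 signal of 7, 379 were on the higher side in knockout. The 435 genes had a median difference of 0.31, beside 0.06 over all genes above that signal. Their median relative to wild type was -0.44 and -0.32 in knockdown and -0.04 and -0.14 in knockout. The gaps were 1.53 for Tpm2, 0.92 for Arhgef10l, 0.87 for Haus6, 0.81 for Slc2a1 and 0.76 for Fhl3. How much of them comes with the chromosome was not tested.

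In 3 called genes both groups departed from wild type in the same direction. Grina, a membrane protein of the TMBIM family on chromosome 15, read 10.07 and 10.11 in knockout, 9.48 and 9.44 in knockdown and 8.83 to 8.88 in wild type (0.63 ± 0.0721 between the groups, limma adjusted p = 0.0464). Arhgef10l read 7.47 and 7.29 against 6.46 and 6.46, with wild type at 6.04 to 6.27 (0.92 ± 0.11, adjusted p = 0.0488). Both were highest in knockout and intermediate in knockdown. Haus6, a subunit of the augmin complex of the mitotic spindle, read 8.37 and 8.39 in knockout, 7.59 and 7.42 in knockdown and 8.52 to 8.76 in wild type (0.87 ± 0.108, adjusted p = 0.0495). It was lowest in knockdown and intermediate in knockout.

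Of 6 further lists, 5 had no call by limma. Wnt pathway genes had 0 called of 42, with 3 higher and 7 lower at unadjusted p below 0.05 and a median of -0.14. The receptor gene Fzd6 read 8.75 and 8.12 in knockout against 6.22 and 7.21 (adjusted p = 0.109), and the transcription factor gene Lef1 6.51 and 5.88 against 5.39 and 5.33 (adjusted p = 0.137). TGF-beta and BMP genes had 0 called of 34 with a median of 0.04, and 8 were higher and 3 lower unadjusted. Cholesterol synthesis genes had 0 called of 21 (3 higher and 6 lower unadjusted, median -0.11), with Idi1 at 0.48 and Mvk at -0.62 (adjusted p = 0.098 and 0.12). A second probe set of Idi1 differed by 0.10. Plasminogen activation and coagulation genes had 0 called of 14 (2 higher and 0 lower unadjusted, median 0.13). Among these, Plaur, the urokinase receptor, read 8.67 and 8.72 against 7.96 and 7.998, with wild type at 8.73 to 8.95 (adjusted p = 0.0543). Cytokines and NF-kB response genes had 0 called of 22 (2 higher and 0 lower unadjusted, median 0.07), with the TNF receptor gene Tnfrsf1b at 6.78 and 6.82 against 5.84 and 5.59 (adjusted p = 0.0533). Cell cycle genes were centred near the median of all genes, at 0.02 for 35 genes, with Haus6 the 1 call.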

How the data were processed

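The deposited table holds 1 value per probe set and array on the log2 scale, as read from the values; the submitters' processing notes name affy in R 2.8.0, and no source used here states the authors' background correction, summarisation or normalization. Per the labels' protocols, RNA was amplified and labelled with Affymetrix whole-transcript kits. Values were used as deposited. Of 34760 probe sets, 21640 had a single gene symbol and 21553 of these matched the RefSeq gene table of GRCm38.p6; a gene with several probe sets was represented by the brightest on average over the 7 arrays. Genes above the array's 25th percentile on at least 2 arrays were tested. Limma 3.58.1 in R 4.3.3 (lmFit, eBayes, two-sided) fitted a mean per group over 7 arrays, with 4 degrees of freedom left and 2.06 from the prior, and p-values were adjusted by Benjamini-Hochberg over 16801 genes. The number of arrays limits the precision. The fit was tested on simulated data.

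Named genes were Tnc, the 12 largest calls each way with arrays apart, the 4 largest calls at most of each list (the 2 with the lowest p where a list had none) and of each wild-type class; any other gene is marked as a later choice or as picked once its values were seen. The comparison, gene lists and genes were chosen with earlier results of these data known. Alternatives covered the arrays, filter, scaling, prior variance, array weights, replicate block, sex chromosomes, probe set choice and each array left out; leaving out chromosome 18 was added after seeing the data.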

Additional observations from a re-analysis of the deposited data

Results flagged for a closer look

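These results stood out because knockout and knockdown lay on opposite sides of wild type, with no array of either group inside the wild-type range. In the first set knockout was above and knockdown below wild type, and the knockout minus knockdown gaps were 3.34 for Fhl1, 2.86 for Rasgrp3, 2.79 for Tspan2, 2.18 for Plod2, 1.88 for Gja1, 1.86 for Prkar2a, 1.73 for Ammecr1, 1.53 for Tpm2, 1.39 for Ero1a, 1.10 for Dusp6 and 0.81 for Slc2a1. Ammecr1, a gene of the X chromosome chosen after its values were seen, read 8.53 and 8.26 in knockout, 6.36 and 6.97 in knockdown and 7.51 to 7.74 in wild type. In the second set knockdown was above and knockout below wild type, with gaps of -4.44 for Avpr1a, -3.21 for Mr1, -2.77 for Mab21l1, -1.36 for Hoxa2 and -1.0045 for Ggt7. The chromosome 18 genes of this second set were Sap130 at -1.09, Poli at -0.90, Kdm3b and Hsd17b4 at -0.89, Zfp516 at -0.86, Elp2 at -0.85, Wdr7 at -0.77, Dele1 at -0.74 and Atp9b at -0.71. Of the 63 called genes 39 met this description, 25 in the first set and 14 in the second; the 25 named here are 11 of the first and all 14 of the second. For these 25 genes the gap itself passed the limma test between knockout and knockdown at an adjusted p under 0.05. The median of chromosome 18 genes with a mean log2 signal above 7 also had the groups on opposite sides of wild type, at -0.46 between knockout and knockdown, and that difference was not tested.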

How the results depend on the processing

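The count of 63 calls (46 higher, 17 lower) was 0 (0 and 0) on the 4 knockout and knockdown arrays alone. Without a filter it was 38 (25 higher) and with a stricter filter 111 (80 and 31). Quantile normalization gave 100 (35 lower) and median centring 137 (111 and 26). Array weights gave 18 (13 and 5), a mean-dependent prior 26 (18 and 8) and a robust prior 105 (77 and 28). Leaving out each array in turn gave 0 to 103 calls, 0 to 66 higher and 0 to 37 lower. Without both arrays numbered 2 there was 1 call (1 higher, 0 lower), and without chromosome 18, chosen after seeing the data, 33 (26 and 7). The replicate block, with arrays matched by number, gave 2 calls (1 and 1), P2ry10b and Rpl39l. The labels give no pairing. The array 1 minus array 2 differences of knockout and knockdown correlated at 0.00196 over genes. That value leaves out wild type and cannot show whether same-numbered arrays shared a batch or handling. The causes of these differences were not tested. The hypoxia and glycolysis median of 0.26 reversed to -0.00040 without knockout array 2 and to -0.023 without both arrays numbered 2. It ranged up to 0.56 with single arrays left out. Without both arrays numbered 2 the p53 median was 0.58 in place of 0.42 and the imprinted median -0.50 in place of -0.37. The interferon median was -0.21 in place of -0.25 and the regional factor median -0.23 in place of -0.18. Over all tested chromosome 18 genes it was -0.36 in place of -0.31. Of 92 named genes in up to 20 alternatives each, 0 changed direction. Where knockout and knockdown arrays did not overlap, leaving out arrays could not change it. Of the comparisons, 468 fell below the threshold, 37 rose past it and 1316 kept their side. The knockdown mean lay below the array median in 11 called genes, the knockout mean in 6 and both in 1, which limits those differences.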
